A study of Rattus norvegicus with 125 samples.

Results

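The chemokines and the cytokine-response genes described here are 10 genes followed along the rat kidney tubule: the chemokines Cxcl1, Cxcl2, Cxcl10, Cxcl12 and Ccl2, the cytokines Il6 and Lif, and the response genes Socs3, Nfkbia and Icam1. They were chosen by symbol, and all 10 were found among the 17144 gene symbols of both RNA-seq tables used, as 12 transcripts, 3 of them of Cxcl12. The values are RPKM, read counts scaled by transcript length and by mapped reads. Comparisons of levels between genes or between libraries are approximate, because shifts of most genes between groups remain. The level of some genes also differed between 2 deposited versions of the segment values. The version made without polyadenylation-site data gave a median ratio to the one used of 0.12 for Lif, over only 3 libraries. The ratio was 0.538 for Socs3, 1.31 for Nfkbia and 1.56 for Cxcl12. Of the 10 genes, 8 were above the low-value limit of the tubule comparison (at least 1 RPKM in at least 4 libraries), and Cxcl2 and Il6 were not.

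The study mapped gene expression along the nephron in tubule segments microdissected by hand from collagenase-perfused left kidneys of adult male Sprague-Dawley rats of 200 to 250 g on normal chow. It held libraries of 14 segments: 7 each of the S1, S2 and S3 proximal tubule, 10 of the short descending limb (SDL), 9 of the long descending limb in the outer medulla (LDLOM), 4 of its inner medullary continuation (LDLIM), 7 each of the thin ascending limb (tAL) and of the medullary (mTAL) and cortical (cTAL) thick ascending limb, 8 of the distal convoluted tubule (DCT), 6 of the connecting tubule (CNT), and 11, 7 and 8 of the cortical (CCD), outer medullary (OMCD) and inner medullary (IMCD) collecting duct. There were also 5 libraries of glomeruli. A second experiment asked which transcripts change in vasopressin escape, the loss of the antidiuretic response under a water load: 4 libraries of CCD from water-loaded rats (WL, 50 mL of water a day in gelled food for 4 days) were set against 4 from controls (C, 25 mL a day), all from male rats of 5 weeks that carried a minipump delivering 5 ng/hr of the vasopressin V2 agonist dDAVP. The labels name no inflammatory stimulus and no altered gene in any group. The labels give the water-load libraries rat numbers but do not state whether the libraries of a segment stem from separate rats; the p-values describe the spread between these libraries and no more.

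Chemokines are small secreted proteins that draw leukocytes through receptors on their surface, and many of their genes are switched on by the transcription factor NF-kB after tumour necrosis factor, interleukin-1 or cell stress. Cxcl1 and Cxcl2 attract neutrophils through Cxcr2, Ccl2 attracts monocytes through Ccr2, Cxcl10 is induced by interferons and attracts T cells through Cxcr3, and Cxcl12 is a largely constitutive ligand of Cxcr4. Il6 and Lif signal through the shared receptor subunit gp130 to STAT3, Socs3 is the feedback inhibitor of that pathway, Nfkbia encodes the inhibitor that holds NF-kB in the cytoplasm and is itself an NF-kB target, and Icam1 is the endothelial and epithelial ligand of leukocyte integrins. In the kidney, tubule cells make several of these factors after injury.

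Promoters were compared because these genes share a known regulator. The RefSeq table of build GRCr8 held the promoter of 8 of the 10 genes (all but Ccl2 and Lif). In the 250 bases before the start site, both strands read, a match to the 10-letter NF-kB consensus was present in 6 of them: Cxcl1, Cxcl2, Cxcl10, Il6, Socs3 and Nfkbia. The same consensus was present in 967 of 27457 promoters of that length (3.52%). The pair Cxcl1 and Cxcl2 is shown because the match sits at nearly the same distance in both, Cxcl10 because it also carries an interferon-response core (GAAA, any 2 bases, GAAA, present in 3.29% of promoters), Nfkbia because its match lies closest to the start, and Cxcl12 because it had no match to any motif searched. The third motif, the STAT palindrome TTCNNNGAA (7.52% of promoters), was found only in Icam1, 107 to 99 bases before the start. The sequences run 5′ to 3′ along the gene, and capitals mark the matches. The windows are chr14:17479322-17479571 on the minus strand for Cxcl1, chr14:17467256-17467505 on the minus strand for Cxcl2, chr14:15988816-15989065 on the plus strand for Cxcl10, chr6:78597073-78597322 on the minus strand for Nfkbia and chr4:152060531-152060780 on the plus strand for Cxcl12.
Cxcl1: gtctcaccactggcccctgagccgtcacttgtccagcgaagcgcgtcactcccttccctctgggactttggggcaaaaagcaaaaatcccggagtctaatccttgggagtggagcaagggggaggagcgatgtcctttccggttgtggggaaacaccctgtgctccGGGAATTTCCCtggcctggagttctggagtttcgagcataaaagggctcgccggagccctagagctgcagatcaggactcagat
Cxcl2: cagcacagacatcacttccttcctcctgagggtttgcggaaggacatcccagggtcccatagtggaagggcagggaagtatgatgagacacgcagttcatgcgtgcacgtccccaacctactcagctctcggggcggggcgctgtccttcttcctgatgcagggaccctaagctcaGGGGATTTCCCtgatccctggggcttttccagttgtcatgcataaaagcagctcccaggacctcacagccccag
Cxcl10: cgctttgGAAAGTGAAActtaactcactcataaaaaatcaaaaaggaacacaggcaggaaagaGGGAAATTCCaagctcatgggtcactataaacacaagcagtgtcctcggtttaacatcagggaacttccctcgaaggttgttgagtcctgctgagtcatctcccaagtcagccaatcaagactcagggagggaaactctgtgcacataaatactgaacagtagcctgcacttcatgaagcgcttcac
Nfkbia: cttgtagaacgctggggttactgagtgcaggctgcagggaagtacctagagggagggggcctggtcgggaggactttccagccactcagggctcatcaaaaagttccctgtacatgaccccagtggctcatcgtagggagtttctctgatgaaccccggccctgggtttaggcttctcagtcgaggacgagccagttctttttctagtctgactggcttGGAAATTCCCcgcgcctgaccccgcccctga
Cxcl12: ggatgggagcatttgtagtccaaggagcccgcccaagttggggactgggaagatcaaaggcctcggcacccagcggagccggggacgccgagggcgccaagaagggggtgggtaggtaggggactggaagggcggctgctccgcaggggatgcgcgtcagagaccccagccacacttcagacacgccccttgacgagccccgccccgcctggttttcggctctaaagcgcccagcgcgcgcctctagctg
The match in Cxcl1 began 84 bases before the start and that in Cxcl2 began 74 bases before it, that in Cxcl10 187 and that in Nfkbia 31. A match of letters is a description of the window and not a measured binding site.

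The tables hold no read counts, so the depth of a library is unknown and the number of genes at 1 RPKM or more stands in for it. It was 1438 to 8574 in tubule libraries, with 14 libraries under 2500, and 8818 to 9483 in glomeruli. Across all tubule libraries the log2 level of each of the 10 genes had a Pearson correlation of 0.17 to 0.38 with the log2 number of detected genes, a description that carries no p. Several libraries went against their labels. In tAL libraries 1 and 2 the summed RPKM of 12 endothelial markers was 9183 and 6072, against 219 to 695 in the other tAL libraries. In tAL libraries 6 and 7 Aqp1, the water channel of the descending limb, stood at 4296 and 5273 RPKM, a level found in descending limbs. LDLIM library 4 had Aqp1 at 3972 RPKM but Akr1b1, the aldose reductase of the inner medulla, at 60.8 RPKM, against 4152 to 7507 RPKM in LDLIM libraries 1 to 3, and only 3315 genes were detected in it. The collecting duct libraries carried their defining marker, with Aqp2 at 1972 to 15830 RPKM in IMCD and 1128 to 20940 RPKM in OMCD.

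**Figure D1:**
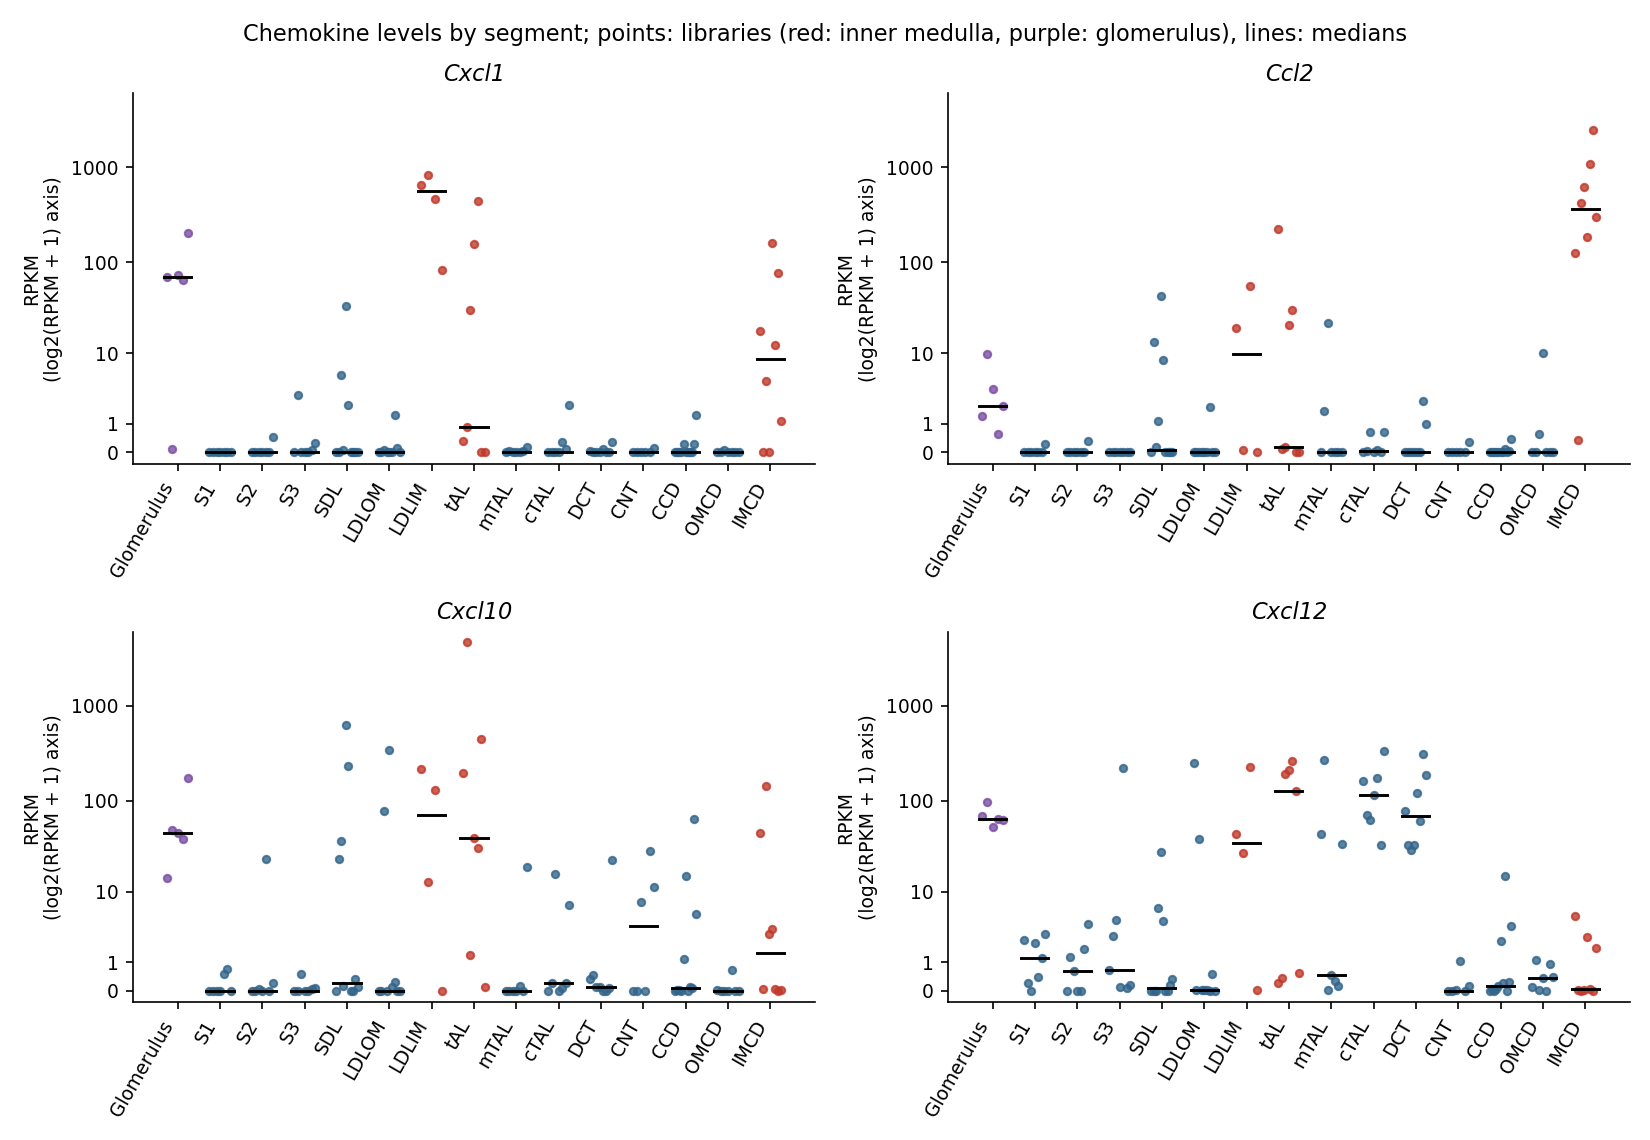
RPKM of Cxcl1, Ccl2, Cxcl10 and Cxcl12 in each library (points, log axis of RPKM + 1) by segment and in glomeruli, with a bar at the median of each group; inner medullary segments are red and glomeruli purple. Cxcl1 stands highest in LDLIM (81.5 to 829 RPKM), Ccl2 in IMCD (median 361 RPKM), and Cxcl12 is the chemokine present in every cTAL and DCT library.

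Cxcl1, the neutrophil attractant, was the chemokine of the inner medullary descending limb. The 4 LDLIM libraries had 653, 829, 465 and 81.5 RPKM. The lowest of them lay above every library of 11 of the other 13 segments, all but tAL and IMCD. LDLIM held 79.7% of the sum of the 14 segment means, and Cxcl1 reached 1 RPKM in only 20 tubule libraries (19.0%). In IMCD it was uneven, with a lowest, median and highest value of 0, 8.57 and 159 RPKM, and in tAL the 7 libraries had 0.311, 0.846, 30.6, 156, 441, 0 and 0 RPKM. The S1 libraries listed it at 0 in all 7. The median was 0 in S2, S3, SDL, LDLOM, mTAL, CNT, CCD and OMCD as well and at most 0.0166 RPKM in cTAL and DCT, and outside the 3 inner medullary segments the highest library was one of SDL with 33.8 RPKM.

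The zone comparison asked whether a segment differs between the inner and the outer medulla. The labels give a collagenase digestion of 25 min for cortex, 50 min for outer medulla and 90 min for inner medulla, so zone and digestion time cannot be told apart. LDLIM libraries averaged 507 ± 320 RPKM of Cxcl1 (SD, n = 4), whereas no LDLOM library exceeded 1.45 RPKM, a log2 change of 8.40 ± 0.84 (SE) with an adjusted p of 3.16e-13 by limma's moderated test with Benjamini-Hochberg adjustment over 11078 genes. A gene is called here when the adjusted p is under 0.05 and the log2 change is at least 1 in size. In this comparison 2 of the 8 genes tested were called, both higher in LDLIM, against 2.71% of all genes tested (2.66% higher). The median log2 change of all genes was 0.59 in the same direction, so the inner medullary libraries read higher for most genes, and the 8.40 of Cxcl1 is to be read against that shift. In the collecting duct Cxcl1 was also higher in IMCD than in OMCD, where no library exceeded 0.0640 RPKM, with a log2 change of 3.13 ± 0.72 (adjusted p 0.00132), a call that was lost after quantile normalization (adjusted p 0.0668). The change in the descending limb exceeded that in the collecting duct by 5.27 ± 1.11 on the log2 scale (limma interaction term, adjusted p 0.00134). That difference missed the threshold with a pseudocount of 0.1 or with the 4 groups fitted alone (adjusted p 0.0930 and 0.127).

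LDLIM also stood above tAL, its neighbour in the inner medulla, by 5.38 ± 0.87 in Cxcl1 (adjusted p 1.90e-05), the only call among the 8 genes in a comparison where 0.758% of all genes were called (0.641% higher). This call rests on the tAL libraries that go against their label. Without tAL libraries 1, 2, 6 and 7 the log2 change was 1.55 (adjusted p 0.797), and the remaining 3 tAL libraries held 30.6, 156 and 441 RPKM. Set against the mean of the other 13 segments and without those 4 libraries, tAL itself was higher in Cxcl1 by 5.95 (adjusted p 7.49e-12), against 2.12 (adjusted p 0.00573) with all 7.

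Ccl2, the monocyte attractant, followed the collecting duct of the same zone instead. The IMCD libraries ranged from 0.343 to 2468 RPKM with a median of 361, and 7 of the 8 held 125 RPKM or more. OMCD libraries had a median of 0 and reached 10.0 RPKM in a single library. LDLIM libraries had 19.6, 0.0488, 55.8 and 0 RPKM, and tAL exceeded 100 RPKM in library 1 only, with 221 RPKM, which is a library rich in endothelial markers. The other 11 segments had medians of at most 0.0700 RPKM and highest libraries of at most 43.3 RPKM, reached in SDL. IMCD held 90.2% of the sum of the segment means. IMCD library 2, the lowest, had only 1 of the 10 genes at 1 RPKM or more, with 3042 genes detected.

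IMCD exceeded OMCD in Ccl2 by a log2 change of 7.23 ± 0.82 (limma, adjusted p 7.44e-12), in a comparison that called 4 of the 8 genes, all higher, against 7.47% of all genes tested (6.48% higher), with a median of all genes of 0.55. The call held in 17 of 17 alternatives, with log2 changes from 6.71 to 9.60. LDLIM against LDLOM gave 2.39 ± 0.95 for Ccl2, which was not called (adjusted p 0.158) and was called only without LDLIM library 4 (3.24, adjusted p 0.0471). The interaction was -4.84 ± 1.26 (adjusted p 0.0247), so the change in the descending limb was smaller than that in the collecting duct. With Cxcl1 this made 2 of the 8 genes called in the interaction, 1 in each direction, against 1.11% of all genes. The Ccl2 interaction was lost under 4 alternatives (adjusted p 0.145 to 0.396), among them leaving out LDLIM library 2 or library 4.

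Set side by side within the inner medulla, LDLIM was higher than IMCD in Cxcl1 by 5.42 ± 0.85 (adjusted p 1.11e-06) and lower in Ccl2 by a log2 change of -5.25 ± 0.97 (adjusted p 4.86e-05). Both calls held in 21 of 21 alternatives, and they were the 2 calls among the 8 genes where 3.31% of all genes were called. Library by library, Cxcl1 had more RPKM than Ccl2 in 4 of 4 LDLIM libraries, in 4 of 7 tAL libraries and in 0 of 8 IMCD libraries. The neutrophil and the monocyte attractant were therefore highest in different tubules of the same zone.

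**Figure D2:**
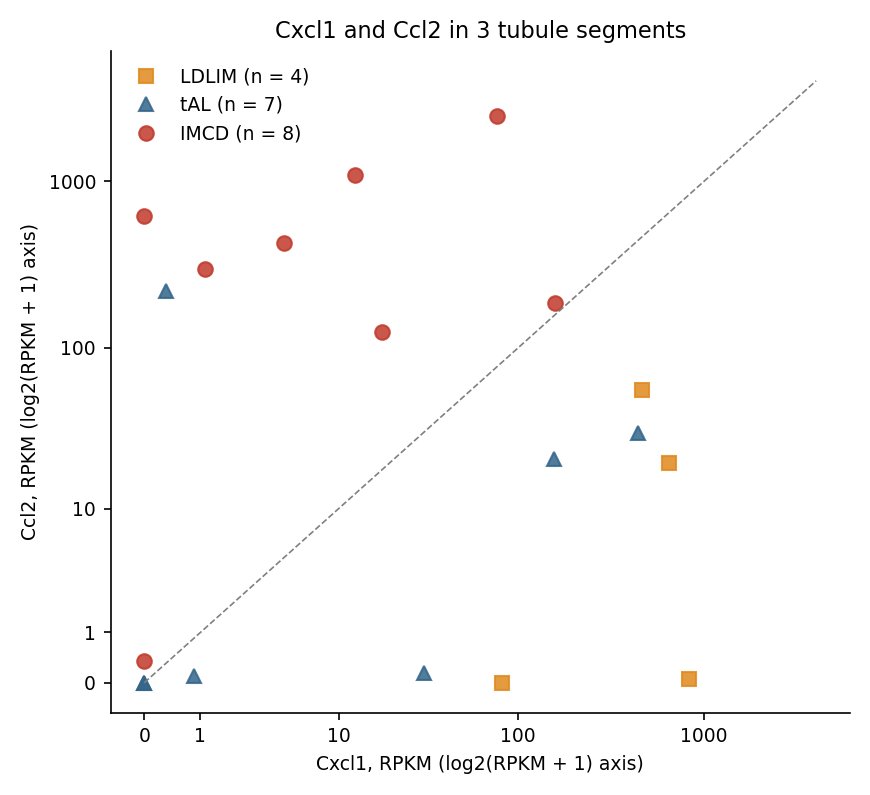
Ccl2 (vertical) against Cxcl1 (horizontal), both in RPKM + 1 on log axes, with a point for each library of LDLIM, tAL and IMCD and a dashed line of equal levels. The LDLIM points lie on the Cxcl1 side of the line in 4 of 4 libraries and no IMCD point does.

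Cxcl10, the interferon-induced T-cell attractant, was scattered. It reached 1 RPKM in 31 tubule libraries (29.5%). The tAL libraries had 194, 4670, 1.41, 39.2, 30.9, 448 and 0.1005 RPKM, and the highest value belongs to library 2, which is rich in endothelial markers. LDLIM libraries had 213, 12.9, 128 and 0 RPKM. In 2 of the 9 LDLOM libraries it stood at 76.7 and 345 RPKM while the others did not exceed 0.239, so the descending limb groups overlapped. SDL had 4 of 10 libraries at 1 RPKM or more, the highest at 622, and no S1, S3 or OMCD library exceeded 0.708 RPKM. Neither LDLIM over LDLOM (2.95 ± 1.39, adjusted p 0.253) nor IMCD over OMCD (2.01 ± 1.20, adjusted p 0.337) was called. Against the other 13 segments tAL was higher by 4.37 (adjusted p 0.000391), and this was lost without tAL libraries 1 and 2 (2.72, adjusted p 0.119).

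Cxcl12, the ligand of Cxcr4, was the chemokine of the distal cortex and of part of the thin limbs. It was present at 33.7 to 332 RPKM in all 7 cTAL libraries (median 114) and at 29.2 to 312 RPKM in all 8 DCT libraries (median 68.6). These neighbouring segments overlapped throughout. cTAL was higher than the other 13 segments by 4.69 ± 0.79 (adjusted p 6.98e-06) and DCT by 4.16 ± 0.75 (adjusted p 1.53e-05), each the only call among the 8 genes, where 2.36% and 4.22% of all genes were called higher. Downstream the level dropped, with no CNT library above 1.07 RPKM, no OMCD library above 1.11 and no IMCD library above 5.09. CCD had a median of 0.138 and a mean of 2.03 RPKM. The CCD libraries of the water-load experiment, given below, all lay above that mean, so Cxcl12 was not absent from CCD. The mTAL libraries had a median of 0.457 and a highest value of 271 RPKM, with 3 of 7 at 1 RPKM or more. mTAL was lower than cTAL by a log2 change of -3.93 ± 1.08 (adjusted p 0.0442), the single call among 8 genes where 1.03% of all genes were called (0.993% lower) and the median of all genes was -0.55. That call was lost under 6 alternatives (adjusted p up to 0.361), with log2 changes from -5.14 to -2.90 over all alternatives. The proximal segments S1, S2 and S3 had medians of 1.22, 0.605 and 0.670 RPKM, and a single S3 library reached 220.1 RPKM.

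In the thin limbs Cxcl12 stood at 0.212, 0.380, 193, 212, 260, 127 and 0.536 RPKM in the 7 tAL libraries and at 43.4, 27.5, 225 and 0.0245 RPKM in LDLIM. The libraries at the bottom were tAL libraries 1, 2 and 7 and LDLIM library 4, all among those that stand apart. LDLIM over LDLOM was not called (2.98 ± 1.22, adjusted p 0.168) except without LDLIM library 4 (4.49, adjusted p 0.0257) or with all transcripts kept (3.99, adjusted p 0.00854). LDLIM over IMCD was not called either (3.77 ± 1.24, adjusted p 0.0709), except under 3 alternatives, with 5.27 (adjusted p 0.0070) without LDLIM library 4. With all 7 tAL libraries Cxcl12 was not called higher in tAL than in the other 13 segments (adjusted p 0.0576), nor without libraries 6 and 7 (2.59, adjusted p 0.0604). Without libraries 1 and 2 it was called (3.96 ± 0.89, adjusted p 0.00141), and without libraries 1, 2, 6 and 7 the log2 change was 5.55 ± 1.08 (adjusted p 0.00014). The values are those of transcript NM_022177, which had the highest mean of the 3 Cxcl12 transcripts. The other 2, NM_001033882 and NM_001033883, tracked each other with a Pearson correlation of 0.998 of log2 levels over all tubule libraries. The median ratio between them was 1.90, taken over 51 libraries, and they are not told apart here.

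Cxcl2, the relative of Cxcl1, was nearly absent. It reached 1 RPKM in 2 tubule libraries, with 8.43 RPKM in LDLIM library 1 and 1.02 RPKM in cTAL library 7, and was listed at 0 in 99 (94.3%). Cxcl1 and Cxcl2 are similar in sequence, and the counting of reads that match both is not stated in the labels.

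The gp130 cytokines were rare as transcripts. Il6 reached 1 RPKM in 3 tubule libraries, with 24.9 RPKM in SDL library 6, 4.49 in LDLIM library 1 and 3.06 in IMCD library 1, and was listed at 0 in 96 (91.4%). Lif reached it in 9, with the highest values of 39.25 and 20.5 RPKM in tAL libraries 5 and 7 and with 9.97 and 8.04 RPKM in LDLIM libraries 1 and 3. In the second deposited table, made without polyadenylation-site data, Lif was listed at 0 in all 4 LDLIM libraries and in tAL library 7, and IMCD library 3 was highest with 73.6 RPKM, against 12.3 RPKM in the first, so the segment with the highest Lif depended on the table. In the first table Lif was called higher in LDLIM than in the other 13 segments (1.39 ± 0.44, adjusted p 0.0345), a call lost without LDLIM library 1 or library 3 (0.80 and 0.89), after quantile normalization (0.60, adjusted p 0.327), with detected genes as a covariate (adjusted p 0.0715) and without libraries under 2500 genes (adjusted p 0.0637). Against LDLOM it was not called (1.57 ± 0.52, adjusted p 0.0771), except without LDLIM library 2 or library 4 (2.11 and 2.12, adjusted p 0.0244 and 0.0128).

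**Figure D3:**
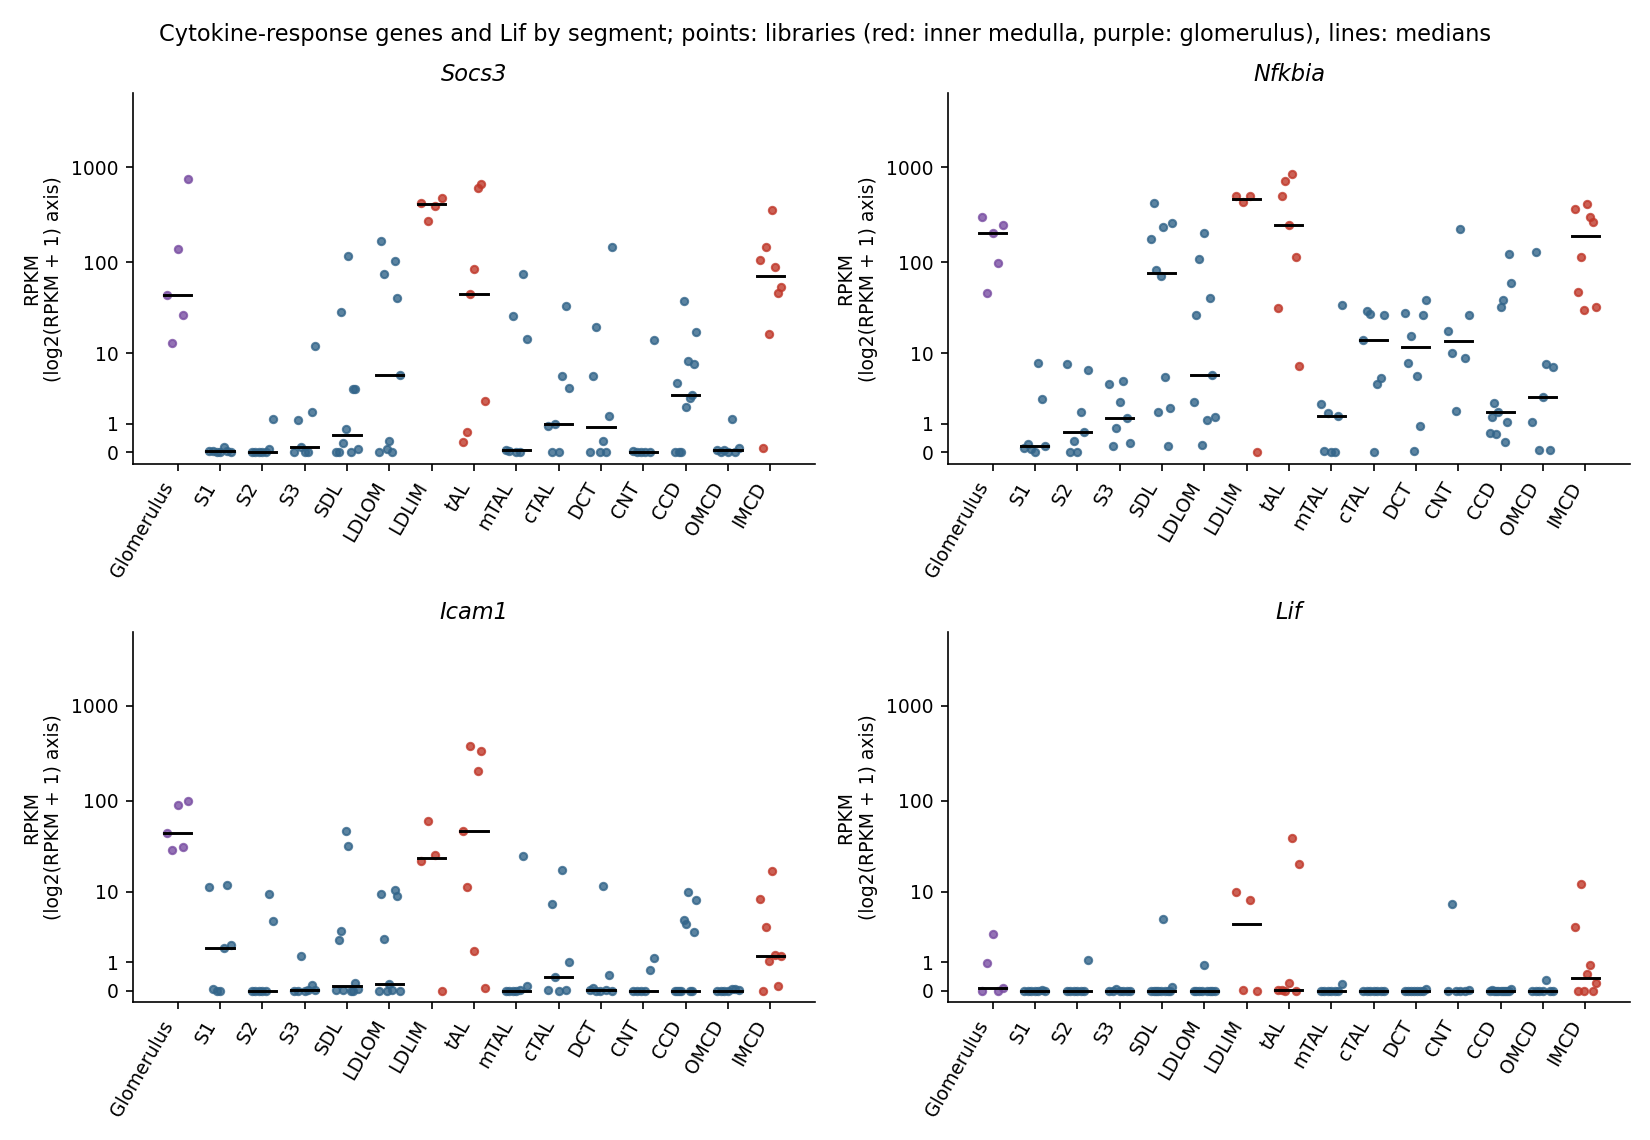
RPKM of Socs3, Nfkbia, Icam1 and Lif in each library (points, log axis of RPKM + 1) by segment and in glomeruli, with a bar at the median of each group; inner medullary segments are red and glomeruli purple. Socs3 lies between 273 and 471 RPKM in the 4 LDLIM libraries, Icam1 is highest in tAL, and Lif reaches 1 RPKM in 9 tubule libraries.

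Socs3, the feedback inhibitor of gp130 signalling, was the most uniform of the genes in LDLIM, with 418, 273, 396 and 471 RPKM (389 ± 84.0, SD, n = 4). All 4 libraries were high, library 4 included. LDLOM libraries had a median of 5.48 and a highest value of 166 RPKM, and the groups did not overlap. The log2 change was 5.37 ± 1.28 (adjusted p 0.0066), and the call was lost under 3 alternatives, with an adjusted p of up to 0.174. IMCD libraries had a lowest, median and highest value of 0.102, 71.3 and 353 RPKM, and no OMCD library exceeded 1.24 RPKM (5.35 ± 1.11, adjusted p 0.000242). The changes in the descending limb and in the collecting duct differed by 0.02 ± 1.69, which was not called. In the proximal tubule Socs3 was low, with no S1 library above 0.148 RPKM, no S2 library above 1.25 and no S3 library above 12.05, and S1 was called lower than the other segments (-2.56, adjusted p 0.0499), with adjusted p-values of 0.0504 to 0.0530 when any LDLIM library was left out, of 0.0673 without the filter and of 0.177 in the second deposited table.

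Nfkbia, the NF-kB inhibitor, was the most widely detected, at 1 RPKM or more in 79 tubule libraries (75.2%). All 8 IMCD libraries held 30.9 to 410 RPKM (median 189), whereas the OMCD median was 2.82 and its highest value 127.5, so the groups overlapped. IMCD was higher by 4.67 ± 1.16 (adjusted p 0.00335). LDLIM libraries had 505, 427, 497 and 0.0215 RPKM, the last in library 4, and LDLOM a median of 5.57 and a highest value of 203 RPKM. LDLIM over LDLOM was not called with all libraries (3.15 ± 1.35, adjusted p 0.190) and was called without LDLIM library 4 (5.37, adjusted p 0.0122). SDL, CNT, cTAL and DCT had medians of 76.7, 13.9, 14.4 and 11.9 RPKM, and mTAL, CCD, S3 and S2 of 1.41, 1.65, 1.32 and 0.657 RPKM. In S1 the median was 0.180 RPKM, lower than the other 13 segments by a log2 change of -2.97 (adjusted p 0.0221), and with Socs3 this made 2 of 8 genes lower in S1, where 1.82% of all genes were called lower.

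Icam1, the leukocyte adhesion molecule, was highest in tAL, whose libraries had 47.7, 11.4, 379, 1.65, 205, 336 and 0.0654 RPKM. High values occurred both inside and outside the libraries that stand apart. tAL exceeded the other 13 segments by 3.90 ± 0.67 (adjusted p 1.21e-05), and by 4.74 (adjusted p 0.000181) without libraries 1, 2, 6 and 7. The other tAL calls were Nfkbia (4.00, adjusted p 0.000849), Socs3 (2.55, adjusted p 0.0439), Lif (1.15, adjusted p 0.0189), Cxcl1 and Cxcl10. Socs3 and Lif lost the call without libraries 6 and 7 (2.22 and 0.84) and with a pseudocount of 0.1 (adjusted p 0.0531 and 0.0560). Socs3 also lost it without the filter (adjusted p 0.0563), in the second table (1.62, adjusted p 0.268) and without libraries under 2500 genes (1.47, adjusted p 0.356). LDLIM libraries had 22.3, 60.1, 26.2 and 0.00337 RPKM against a highest LDLOM value of 10.4 RPKM, which was not called (2.44 ± 1.02, adjusted p 0.180) except without LDLIM library 4 (3.71, adjusted p 0.0294). Elsewhere in the tubule the median did not exceed 1.86 RPKM, the value of S1, and in OMCD no library exceeded 0.0544 RPKM. IMCD over OMCD was not called either (1.64 ± 0.88, adjusted p 0.274).

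**Figure D4:**
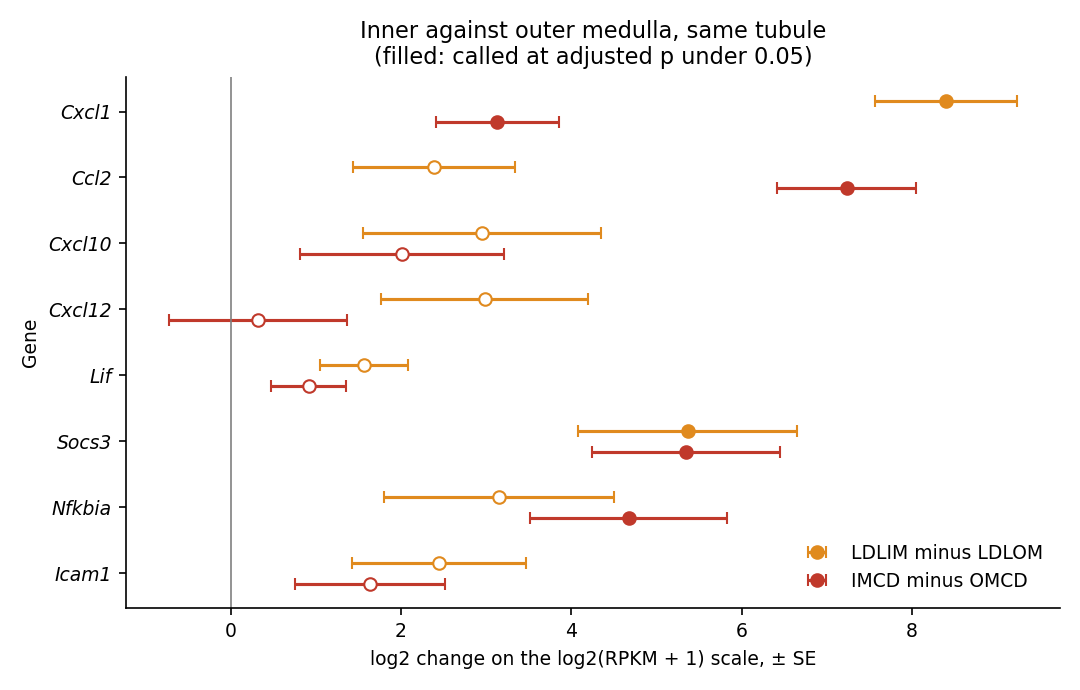
Log2 change with its standard error for the 8 genes tested, for LDLIM minus LDLOM and for IMCD minus OMCD; filled symbols are called genes and a line marks 0. Cxcl1 changes most in the descending limb (8.40) and Ccl2 most in the collecting duct (7.23).

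Each segment was also set against the mean of the other 13. Of the 112 tests of 8 genes in 14 segments, 17 were called. They fell in tAL (6 of 8 higher, against 4.86% of all genes higher), IMCD (4 of 8, against 10.6%), LDLIM (3 of 8, against 5.82%), cTAL and DCT (Cxcl12 in each) and S1 (2 lower). The IMCD calls were Ccl2 (7.14 ± 0.58, adjusted p 9.90e-20), Socs3 (3.38, adjusted p 0.000873), Nfkbia (3.68, adjusted p 0.000507) and Cxcl1 (2.07, adjusted p 0.00193), of which Cxcl1 was lost after quantile normalization (1.24, adjusted p 0.101). In the remaining 8 segments limma called 0 of 8 genes, with 1 to 4 of 8 at an unadjusted p under 0.05 in each. All genes were called there at 6.9% in S2, 5.66% in S3, 4.53% in SDL, 2.72% in LDLOM, 1.61% in mTAL, 1.71% in CNT, 9.67% in CCD and 1.92% in OMCD. Leaving out tAL libraries 1, 2, 6 and 7 raised the 17 calls to 30. The segments share a fit, and the share of all genes called under that setting is not given here. The rise is therefore not read as a result about these genes. Along the collecting duct before the inner medulla, OMCD against CCD called 0 of the 8 genes and 0 were at an unadjusted p under 0.05 (1.3% of all genes were called), and S3 against S1 gave the same 2 counts (1.88%).

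Detection was counted library by library. In 94 tubule libraries at least 1 of the 10 was at 1 RPKM or more, and in 23 libraries at least 5 were, of which 6 were IMCD, 4 tAL, 3 LDLIM, 3 SDL, 2 LDLOM, 2 CCD and 1 each S2, cTAL and DCT. All 10 reached 1 RPKM only in LDLIM library 1, where 7041 genes were detected. Across all tubule libraries the log2 levels of Cxcl1 and Socs3 had a Pearson correlation of 0.67, and of 0.39 after the segment means were removed, and those of Cxcl10 and Nfkbia of 0.62 and 0.49. Cxcl12 and Ccl2 had a correlation of 0.0075. These values share library depth and carry no p.

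By the same measure the 3 genes most like Ccl2 were Akr1b8 (0.84), an aldo-keto reductase, Ccl7 (0.84), its neighbouring monocyte chemokine, and Plk3 (0.83), a stress-induced kinase. Those most like Cxcl1 were Col11a1 (0.80), Fosb (0.75) and Psca (0.74). Socs3 was closest to the immediate early genes Fosb (0.79) and Atf3 (0.77) and to Rnd1 (0.74). Nfkbia was closest to Sqrdl (0.71), to the NF-kB regulator Nfkbiz (0.68) and to Ier2 (0.66). Cxcl10 was closest to Nck2 (0.70), Sqrdl (0.66) and Klf4 (0.65), and Icam1 to Rnd1 (0.67), Angptl4 (0.65) and LOC298795 (0.64). Cxcl12 stood with other genes than these, Arnt2 (0.69), Esrrb (0.67) and Prom2 (0.65).

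Among 16 other chemokines tested, 2 were higher in IMCD than in OMCD and none was called in LDLIM against LDLOM. Ccl7, another Ccr2 ligand, averaged 121 ± 93.0 RPKM in IMCD and 0.0303 ± 0.0519 RPKM in OMCD (6.05 ± 0.48, adjusted p 1.53e-19). Its change differed between the tubule types in the same direction as that of Ccl2 (interaction -5.04 ± 0.74, adjusted p 8.95e-07). Cx3cl1, the membrane-bound fractalkine, averaged 25.5 ± 22.4 RPKM in IMCD and 0.542 ± 0.767 RPKM in OMCD (3.22 ± 0.97, adjusted p 0.0223). The list medians were 0.17 in LDLIM over LDLOM and 0.04 in IMCD over OMCD, below the medians of all genes. None of the 7 chemokine receptors tested was called in either comparison.

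Of 22 NF-kB subunits and feedback genes tested, 4 were called higher in LDLIM over LDLOM and 4 in IMCD over OMCD, where 2.66% and 6.48% of all genes were. The list medians were 1.34 and 1.57, against 0.59 and 0.55 over all genes; these shares and medians of all genes are the background of the lists that follow as well. Nfkbiz, an inducible nuclear IkB protein, averaged 108 ± 95.9 RPKM in LDLIM and 6.90 ± 18.2 RPKM in LDLOM (4.21 ± 0.96, adjusted p 0.00342), and 66.6 ± 66.8 RPKM in IMCD against 0.253 ± 0.669 RPKM in OMCD (4.46 ± 0.82, adjusted p 2.90e-05). Birc3, an inhibitor of apoptosis, was called in both (3.24 and 2.09). Tnfaip2 (3.95) and the RNase Zc3h12a (2.96) made up the LDLIM calls, and Tnip2 (2.98) and the deubiquitinase Cyld (2.11) those of IMCD.

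Of 28 genes of the IL-6 family and the JAK-STAT pathway, LDLIM over LDLOM called Jak2 (2.88 ± 0.77, adjusted p 0.0182), the kinase of several cytokine receptors, with a list median of 0.77. A count of 1 of 28 is near the 2.71% called over all genes. IMCD over OMCD called 4 higher and 1 lower, against 7.47% of all genes, with a median of 0.78. The higher ones were Stat6 (4.22), Jak3 (3.12), Stat5b (2.32) and Lifr (1.46), the Lif receptor, and the lower one Cish (-3.12), a STAT5 feedback inhibitor.

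Of 22 inflammatory cytokines and receptors, 3 were higher in LDLIM than in LDLOM (median 0.46) and 5 in IMCD than in OMCD (median 0.82), against 2.66% and 6.48% of all genes. The LDLIM median lay below that of all genes, 0.59. Il1b, a strong inducer of Cxcl1, averaged 15.2 ± 20.5 RPKM in LDLIM and was listed at 0 in all LDLOM libraries (adjusted p 0.00751), with Tnf (1.24) and Tlr2 (2.21) beside it. The IMCD calls were Tnf, which was listed at 0 in all OMCD libraries, its receptor Tnfrsf1a (3.42), Tnfrsf12a (4.01), Tnfsf10 (2.46) and the lipopolysaccharide co-receptor Cd14 (2.38). Of 21 interferon-response genes 1 was called in LDLIM (Oasl, 2.56, list median 1.32) and 5 in IMCD (list median 1.89). Mx1, an antiviral GTPase, averaged 76.6 ± 64.4 RPKM in IMCD and 0.140 ± 0.240 RPKM in OMCD (5.74 ± 0.79, adjusted p 1.19e-08), followed by Oasl (4.68), Irf1 (5.20), Irf7 (4.54) and Psmb8 (2.87). No other leukocyte adhesion gene of 8 tested was called in either comparison.

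Stress and injury genes move with the inner medullary values, beside the digestion time. Immediate early and heat shock genes, which respond to stress of the cell, were called higher for 7 of 22 in LDLIM over LDLOM (list median 3.27) and for 10 of 22 in IMCD over OMCD (list median 2.89), against 2.66% and 6.48% of all genes. Their summed RPKM ranged over 1160 to 13234 in LDLIM and 391 to 2322 in LDLOM, and over 2903 to 10242 in IMCD and 304 to 1880 in OMCD. Fosb, an immediate early gene, averaged 221 ± 177 RPKM in LDLIM and 3.03 ± 6.76 RPKM in LDLOM (6.52 ± 0.99, adjusted p 1.2e-06). Of 10 tubular injury genes, 2 were higher in LDLIM (Timp1 and Gdf15, list median 1.87) and 4 in IMCD (Krt19, Gdf15, Timp1 and Anxa1, list median 2.36). The part of these values in the chemokine differences was not tested.

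Markers of other cells were at different levels. The summed RPKM of 15 leukocyte markers was 2.60 to 206 in LDLIM and 0.293 to 231 in LDLOM, and 0.116 to 60.8 in IMCD and 1.30 to 64.0 in OMCD, with 9, 10, 5 and 4 of the 15 reaching 1 RPKM. Ptprc, the pan-leukocyte marker CD45, was listed at 0 in every LDLIM, IMCD and OMCD library. It was also listed at 0 in every tAL and mTAL library, although the summed level in mTAL was 432 to 1314 RPKM. A Ptprc value of 0 therefore does not show that leukocyte transcripts were absent. The summed level in cTAL was higher than in the 4 groups compared, at 351 to 1194 RPKM. The 12 endothelial markers summed to 42.0 to 175 RPKM in LDLIM and 0.533 to 414 in LDLOM, and to 0.0112 to 72.8 in IMCD and 0.214 to 113 in OMCD. Esam alone made up most of the lowest and highest LDLIM sums (41.1 and 136 RPKM) and of the highest LDLOM sum (375 RPKM). Pecam1 reached at most 0.448 RPKM in LDLIM and 0.786 RPKM in LDLOM, so the descending limb sums are mainly a level of Esam. The 11 interstitial markers summed to 0.122 to 35.6 RPKM in LDLIM and 0.00953 to 134 in LDLOM, and to 0.0906 to 14.4 in IMCD and 0.00340 to 10.9 in OMCD, with Col1a2 and Lum at 0 in all 4 groups. The collecting duct groups also differ in cell types: the 5 intercalated cell markers summed to 0.0131 to 118 RPKM in IMCD and 954 to 1953 RPKM in OMCD, and in bulk libraries fewer cells of a type and less RNA per cell cannot be told apart.

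Glomeruli were set against the mean of all tubule segments. They had higher levels of Icam1 (4.30 ± 0.77, adjusted p 2.23e-06), Cxcl1 (4.02 ± 0.68, adjusted p 5.84e-07), Cxcl10 (3.87 ± 1.06, adjusted p 0.00232), Socs3 (3.74 ± 0.99, adjusted p 0.00141), Cxcl12 (3.68 ± 0.91, adjusted p 0.000649) and Nfkbia (3.63 ± 1.01, adjusted p 0.00267), 6 of the 9 genes tested. In that comparison 38.9% of all genes were called (37.7% higher) and the median of all genes was 1.32, or -0.18 after quantile normalization, so the shares of called genes are high throughout. With the number of detected genes as a covariate 3 of the 6 remained past the threshold, and Cxcl10, Socs3 and Nfkbia did not (adjusted p 0.137, 0.147 and 0.183). That number was 8818 to 9483 in glomeruli and at most 8574 in tubule libraries, without overlap. The covariate therefore cannot be told apart from the group, and the calls kept or lost under it are not read as a result. The share of all genes called under it is not given here. Endothelial markers summed to 2072 to 3056 RPKM in glomeruli and all 11 tested were called higher, while leukocyte markers summed to 793 to 1667 RPKM with 12 of 13 called. Their part in the glomerular levels was not tested.

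The glomerular libraries were uneven for the inducible genes. Cxcl1 had 70.0, 0.0953, 73.0, 64.8 and 205 RPKM, with library 2 nearly empty of it. Socs3 had 44.4, 13.2, 138, 27.0 and 756 RPKM, with library 5 the highest. Library 5 also held Il6 at 11.6 RPKM and Cxcl2 at 11.5 RPKM. Cxcl12, by contrast, was even, at 68.4, 96.6, 51.6, 62.9 and 61.6 RPKM. Ccl2 was not called (0.65 ± 0.72, adjusted p 0.469), with glomerular values of 0.552 to 9.75 RPKM, and neither was Lif (0.25, adjusted p 0.619). Il6 met the low-value limit only through glomerulus library 5, and the other glomerular libraries held at most 0.265 RPKM. Its test therefore cannot support a glomerular difference. The log2 change of Il6 stayed below the limit on its size (0.72 ± 0.28, adjusted p 0.0323) and passed it with a pseudocount of 0.1 (1.72, adjusted p 0.00759).

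In the water-load experiment the question was whether any of these genes changes in CCD during vasopressin escape. Of the 10, only Cxcl10, Cxcl12, Socs3, Nfkbia and Icam1 passed the low-value limit. None of the 5 was called by limma, and 1 had an unadjusted p under 0.05, in a comparison where 13 of 8490 genes were called (0.153%). With rats of the same number as a block, a pairing inferred from these data, 29 genes were called. Cxcl10 had 18.9, 16.4, 34.4 and 37.1 RPKM in WL rats, against 0.130, 0.0931, 22.6 and 33.9 RPKM in C rats. The groups overlapped, and WL was higher in 4 of the 4 pairs of libraries with the same number. The log2 change was 2.21 ± 0.96 without the pairs as a block (limma p 0.0375, adjusted p 0.664) and 2.21 ± 0.65 with them (p 0.00537, adjusted p 0.245), and neither was called. Nfkbia had 29.2, 42.2, 60.1 and 49.5 RPKM in WL rats, against 56.3, 35.6, 209 and 81.8 RPKM in C rats (-0.79 ± 0.45, adjusted p 0.751, or 0.403 with the block), lower in WL in 3 of 4 pairs.

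**Figure D5:**
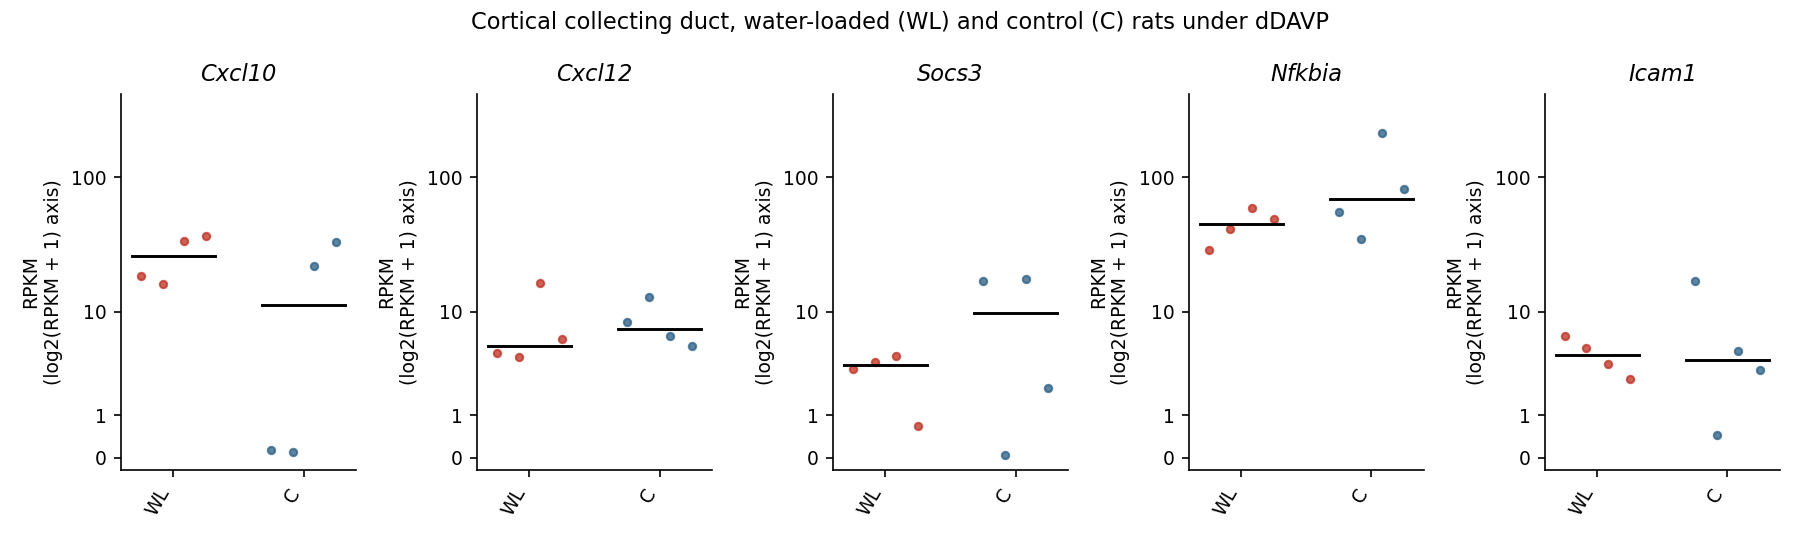
RPKM of the 5 genes tested in the 4 WL and 4 C libraries (points, log axis of RPKM + 1; bars are medians). The groups overlap for all 5 genes, and Cxcl10 is the gene with 2 of 4 C libraries near 0 while all WL libraries lie between 16.4 and 37.1 RPKM.

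Socs3 had 3.28, 3.83, 4.36 and 0.690 RPKM in WL rats, against 17.3, 0.0476, 18.0 and 2.14 RPKM in C rats (-0.65 ± 0.81). Cxcl12 had 4.56, 4.25, 16.6 and 6.06 RPKM in WL rats, against 8.33, 13.02, 6.37 and 5.31 RPKM in C rats (-0.19 ± 0.48). Icam1 had 6.35, 5.09, 3.70 and 2.67 RPKM in WL rats, against 17.2, 0.439, 4.80 and 3.24 RPKM in C rats (0.06 ± 0.64). The groups overlapped for all 3. Of the genes below the limit, Cxcl1 had at most 2.13 RPKM in WL and 1.70 RPKM in C, and Ccl2 at most 0.312 RPKM in WL and 0.0194 RPKM in C. Cxcl2 was listed at 0 in all WL libraries and did not exceed 0.0135 RPKM in C. Il6 was listed at 0 in all 8 libraries and Lif did not exceed 0.0345 RPKM in WL or 0.172 RPKM in C. No gene of the other pathway lists was called in the water-load comparison either.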

How the data were processed

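The authors deposited RPKM tables, for the segments and glomeruli and for the water-load experiment. Per the submitters' processing notes, the tools were Trimmomatic 0.32, STAR 2.3.0-r192, SAMtools and HOMER, on rat build rn5. Per the labels' protocols, poly(A) RNA was captured from lysed tubules and sequenced as paired 50-nt reads. Here the RPKM values were tested as log2(RPKM + 1) with limma 3.58.1 (R 4.3.3), trended moderation and Benjamini-Hochberg adjustment over all genes that reached 1 RPKM in 4 or more libraries of the fit, so a fold change understates that of low genes. The 14 segments shared a fit of 105 libraries, glomeruli joined it, and the 8 water-load libraries had their own. Calls needed an adjusted p under 0.05 and a log2 change of 1 or more in size; in the water-load comparison no limit was set on the change. The transcript with the highest tubule mean stood for a symbol. Fits were checked on simulated data with normally distributed values and the same spread of a gene in all segments. Those data lack the many zeros and the unequal spread of the genes described here, so the check does not cover them. Summaries and figures used Python 3.11.15, pandas 2.3.3 and matplotlib 3.10.9.

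All 10 genes are named in every comparison where they were tested. Of the pathway lists, the called genes are named for LDLIM over LDLOM and IMCD over OMCD, at most 6 per list and comparison. The immediate early and heat shock list is an exception, as only Fosb is named among its calls, as an example. The genes most alike are the 3 with the highest Pearson correlation, for genes at 1 RPKM or more in at least 10 tubule libraries. Members, lists and tests were chosen with earlier results of these data known. The alternatives were another pseudocount, no filter, quantile normalization, all transcripts, a replicate block, a second deposited segment table made without polyadenylation-site data, the groups alone, detected genes as a covariate, libraries of few genes left out, limma array weights and single libraries left out; leaving out tAL libraries and IMCD libraries was chosen after seeing the data. The pairing of WL and C libraries by number was inferred from these data, because all 4 correlations of their deviations were over 0.1 (0.21 to 0.31). Only 3 of the 4 WL libraries correlated best with the C library of their own number. The printed fit has no block unless the block is named. The second table's glomerulus columns appeared displaced by rows and were not used. The 7 whole-kidney libraries were not analysed here. Sequences come from RefSeq, build GRCr8.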

Additional observations from a re-analysis of the deposited data

Results flagged for a closer look

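In 33 of 108 groups of 4 to 10 libraries, 1 library stood apart from the others by Dixon's criterion. For normally distributed values chance flags about 1 in 20, but many of these groups hold mostly zeros. There a single higher library is flagged by construction, so the 33 cannot be set against that rate. In most of the 33 flagged groups a single library held a gene that the rest of its group lacked. For Cxcl1 these were S3 library 2 with 3.01 RPKM, SDL library 5 with 33.8, LDLOM library 7 with 1.45 and cTAL library 7 with 2.18, and glomerulus library 2 was low at 0.0953. For Cxcl2 they were LDLIM library 1 with 8.43 RPKM, cTAL library 7 with 1.02 and glomerulus library 5 with 11.5. For Cxcl10 they were S2 library 5 with 23.3 RPKM, mTAL library 7 with 19.2 and DCT library 8 with 22.7. For Cxcl12 they were S3 library 5 with 220.1 RPKM and CNT library 4 with 1.07.

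Ccl2 stood apart in LDLOM library 7 (2.01 RPKM), mTAL library 3 (21.8 RPKM) and OMCD library 4 (10.0 RPKM), and IMCD library 2 was low at 0.343 RPKM. Il6 did so in SDL library 6 (24.9 RPKM), LDLIM library 1 (4.49 RPKM), IMCD library 1 (3.06 RPKM) and glomerulus library 5 (11.6 RPKM). Lif did so in S2 library 7 (1.11 RPKM), SDL library 6 (4.71 RPKM) and CNT library 2 (7.23 RPKM). SDL library 6 thus held both gp130 cytokines, and glomerulus library 5 both Il6 and Cxcl2.

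Socs3 stood apart in S2 library 7 (1.25 RPKM), S3 library 7 (12.05 RPKM), CNT library 6 (14.2 RPKM) and OMCD library 5 (1.24 RPKM). Nfkbia was low in LDLIM library 4 (0.0215 RPKM) and high in mTAL library 7 (34.9 RPKM). Icam1 stood apart in S3 library 3 (1.31 RPKM), mTAL library 6 (25.6 RPKM) and DCT library 5 (11.8 RPKM).

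The change from the outer to the inner medulla differed between the descending limb and the collecting duct for Cxcl1 (interaction 5.27, larger in the descending limb) and for Ccl2 (interaction -4.84, larger in the collecting duct), each with an adjusted p under 0.05 in limma.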

How the results depend on the processing

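No result reversed. Of 1350 results that stayed on their side of the threshold (or, for counts, within 1.5 times), 1219 were single genes; 42 gene results lost their call and 11 gained one. Of the 8 genes, LDLIM over LDLOM called 2, but 1 with the groups alone, with the covariate or without libraries under 2500 genes, and 2 to 7 with 1 LDLIM library left out (7 without library 4). The interaction called 2, but 0 with pseudocount 0.1 or with the groups alone, and 1 to 2 with 1 LDLIM library left out. mTAL against cTAL called 1, but 0 with pseudocount 0.1, quantile normalization, the replicate block, the second table, the covariate or without libraries under 2500 genes. LDLIM over tAL called 1, but 0 with the groups alone or without tAL libraries 1, 2, 6 and 7. That last setting moved the 17 calls of single segments to 30, with no share of all genes given beside it. Glomeruli called 6, but 3 with the covariate, whose range in glomeruli does not overlap that in tubule libraries. The causes were not tested, except that leaving out libraries or groups changes the samples fitted. The replicate block changed no other member count by over 1.5 times. Segment numbers shared no more than a number (median correlation -0.063 to 0.032). The block gave 21 in place of 17 single-segment calls, also with no share of all genes beside it, so this is not read as a result about these genes. Over all genes, LDLIM over LDLOM called 300, but 6 with the groups alone, 97 with the covariate and 590 without LDLIM library 4; the interaction called 123, but 7 with the groups alone; the water load called 13, but 0 with pseudocount 0.1 or no filter, 25 with array weights, 29 with the block and 0 to 7 with 1 library left out. In the second table Lif reached 1 RPKM in 2 libraries, not 9, and Socs3 in 35, not 50. Depth is unknown, so a value of 0 gives no limit.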
